A study of Drosophila melanogaster with 6 samples.

Results

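The nuclear genes of oxidative phosphorylation were examined in wing discs of Drosophila melanogaster larvae after induced cell death. Genes were taken by FlyBase symbol: those that begin with ND- (complex I), Sdh (complex II), UQCR- (complex III), COX (complex IV) or ATPsyn (complex V, the ATP synthase). This gave 88 nuclear genes of the 16455 genes listed for each library, with 40 of complex I, 7 of complex II, 1 assembly factor of complex II, 9 of complex III, 16 of complex IV and 15 of complex V. None of the 13 protein-coding genes that the annotation places on the mitochondrial genome was found among the listed genes. The nuclear and the mitochondrial subunits of a complex could therefore not be set side by side.

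In oxidative phosphorylation, complexes I and II pass electrons from NADH and succinate to ubiquinone, complex III passes them on to cytochrome c, and complex IV passes them to oxygen. Complexes I, III and IV move protons across the inner mitochondrial membrane, and the ATP synthase uses the gradient to make ATP. All subunits of complex II are encoded in the nucleus, whereas the other complexes combine nuclear subunits with subunits made inside the mitochondrion. Several nuclear subunits have duplicate genes in Drosophila, many of which are known for expression in the testis.

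RNA was measured in 6 libraries of pooled wing discs of larvae in the last instar. By their labels, the 3 mutant libraries carry CR40469-KO, a deletion of the long non-coding RNA gene *CR40469*, together with salE/Pv-LHG:tub-Gal80TS and lexO-rpr, and the 3 control libraries carry salE/Pv-LHG:tub-Gal80TS and lexO-rpr alone. In both groups *rpr*, a gene that induces apoptosis, was expressed for 16 h. The salE/Pv enhancer drives it in the central part of the wing disc only, so each library mixes RNA of the ablated domain with that of the rest of the disc, and fewer cells of a type and less RNA per cell cannot be told apart. Values per library are given below in the order of the replicate numbers 1, 2 and 3.

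The values listed for the deleted gene went against the labels. *CR40469* had 535.93, 389.21 and 293.78 TPM (a transcript's share of all transcripts in a library, scaled to a total of 1000000) in the libraries labelled mutant, against 99.61, 46.44 and 82.52 TPM in the libraries labelled control. *CR40469* has a near-identical copy, *CR34335*, with 1938.29, 1928.63 and 1902.09 TPM in the libraries labelled mutant, against 3521.64, 2442.97 and 3201.91 TPM in those labelled control. Reads can be divided between such copies, and how far the values of *CR40469* come from its copy was not tested. Every direction below is therefore a direction between the labels. The induced gene *rpr* had between 144.06 and 189.81 TPM in the libraries labelled mutant, against 122.67 to 143.52 TPM in those labelled control. All libraries labelled mutant thus lay above those labelled control, as they did for 7.90% of all tested genes. The list of 8 wing disc genes, which includes *Ubx* as a marker of the haltere, passed the filter whole, with sums of 459 to 640 TPM in the libraries labelled mutant against 371 to 604 TPM in those labelled control. At least 1 TPM was reached by 7695 to 7779 genes in the libraries labelled mutant and by 7683 to 7690 genes in those labelled control. How many reads stand behind a TPM value is unknown. The libraries differed by the length of the transcripts that were high or low in them, with replicate 1 of each label in opposite directions. The sums per complex and the length classes are given with and without these 2 libraries below.

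The first question was how strongly the members were expressed in the disc. A gene was tested where it reached at least 1 TPM in at least 1 library, which kept 8051 genes, among them 65 of the 88 members. All but 1 of those 65 exceeded 10 TPM in at least 1 library, and these 64 expressed members are 33 of complex I, 4 of complex II and its assembly factor *Sdhaf3*, 6 of complex III, 8 of complex IV and 12 of complex V. TPM are per transcript length, so levels can be set side by side between genes, with a limit. Values in several libraries still ran with transcript length, as given below. The median length of the expressed members ran from 581 bp in complex III to 1056.5 bp in complex II, and the part of length in the levels was not tested. The median of the members' mean TPM over the 6 libraries was 519.9 in complex IV, 482 in complex V, 386 in complex III, 138 in complex I and 92.9 in complex II. The ranges of single members overlapped between neighbours in this order, with 378 to 688 TPM in complex IV, 13.5 to 1491 TPM in complex V, 143 to 873 TPM in complex III, 74.9 to 1086 TPM in complex I and 86.9 to 203 TPM in complex II.

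**Figure D1:**
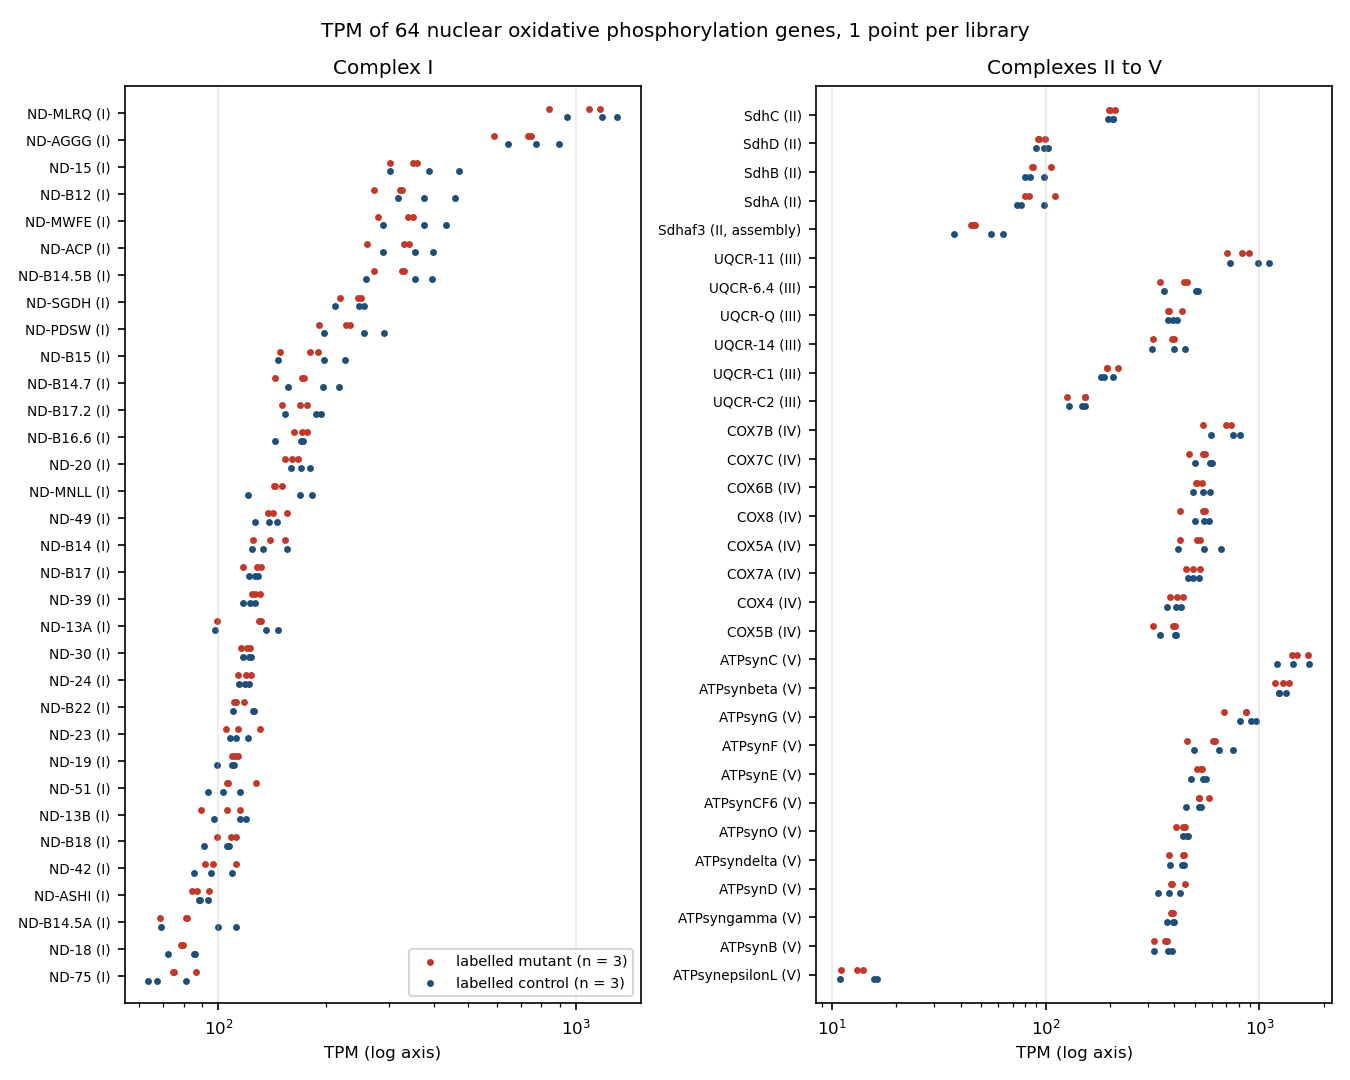
TPM of the 64 expressed members in each library, by complex, on a log axis, with libraries labelled mutant and libraries labelled control as separate markers. The 2 groups of points lie over each other for each member, and levels run from 13.5 TPM for ATPsynepsilonL to 1491 TPM for ATPsynC (means over 6 libraries).

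The member with the highest level was *ATPsynC* (FBgn0039830), which lies on chromosome 3R of dm6 from 31216145 to 31219630 on the minus strand and encodes the subunit of the ring that turns in the membrane as protons pass. Its level was 1683.19, 1505.01 and 1415.64 TPM in the libraries labelled mutant, against 1212.52, 1697.8 and 1429.73 TPM in those labelled control. The highest and the lowest library therefore both carried the control label. *ATPsynbeta* (FBgn0010217), the catalytic subunit, followed with 1284 ± 94.7 TPM in the libraries labelled mutant and 1266 ± 53.2 TPM in those labelled control (SD, n = 3 each). Levels within complex I were uneven. *ND-MLRQ* (FBgn0052230), whose mammalian counterpart has since been assigned to complex IV, averaged 1029.8 ± 168 TPM against 1143 ± 183 TPM. By its symbol it is counted in complex I in all ranges, sums and ratios given here. The next highest of complex I was *ND-AGGG*, with a mean of 731 TPM over the 6 libraries. *ND-75* (FBgn0017566), the large iron-sulphur subunit that takes part in electron transfer from NADH, averaged 78.9 ± 6.75 TPM in the libraries labelled mutant against 70.8 ± 9.33 TPM in those labelled control.

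The second question was whether the members differed between the labels. None of the 65 tested members was called, by limma on log2(TPM + 1) with a required fold change over 1.7 and an adjusted p (Benjamini-Hochberg) under 0.05, where 0.224% of all tested genes were called. No tested member reached an unadjusted p under 0.05, where 4.82% of all tested genes did (3.03% higher and 1.79% lower under the mutant label). None of them had libraries labelled mutant all above or all below those labelled control, where 7.90% of tested genes lay above and 2.56% below. The lowest unadjusted p of a member was 0.110 and its adjusted p 0.818, with limma, for *ND-B12*. The 95% confidence intervals of the 64 expressed members lay within a fold change of 1.7 in either direction, with limits from -0.72 to 0.56 on the log2 scale. That of *COX7AL2*, the remaining tested member, reached 0.73, but its mean of 0.483 TPM lies under the 1 added before the log. Its log2 difference was 0.20, and 0.42 where 0.1 was added, so its interval does not bound its fold change in TPM. The standard error of a member's log2 difference was between 0.13 and 0.23, with a median of 0.15.

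Among the 64 expressed members the log2 difference, mutant label minus control label, lay between -0.31 and 0.16 with a median of -0.04. It was above 0 for 27 members and below 0 for 37. Over all tested genes the median was 0.13, with 74.9% of genes above 0 and 25.1% below. Relative to that median, 62 of the 64 members lay below, while *ND-75* and *SdhA* lay above. Under median ratio scaling, in which the middle gene of each library is set to its mean level over the libraries, the median over all genes was near 0 (-0.00015), the median of the members was -0.17, and 62 of 64 members were below 0. This scaling lowered the median of all genes by 0.13 and turned the sign of 25 members, while 37 members were below 0 and *ND-75* and *SdhA* above 0 under both scalings. None was called under either.

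The sum of TPM over the members of a complex was then set side by side by library, as the plot of summed TPM shows. The genes of complex I summed to 6077, 7150 and 6938 TPM in the libraries labelled mutant, against 7980, 6299 and 7441 TPM in those labelled control. Complex III summed to 2086, 2519 and 2393 TPM against 2790, 2127 and 2627 TPM. In both complexes replicate 1 of the mutant label was the lowest library and replicate 1 of the control label the highest. Complex II with *Sdhaf3* left out summed to 509, 477 and 459 TPM under the mutant label, against 457, 482 and 470 TPM under the control label. Complex IV summed to 3522, 4261 and 4113 TPM under the mutant label, against 4340, 3861 and 4354 TPM under the control label. Complex V summed to 7020, 7528 and 7249 TPM against 7036, 7305 and 7505 TPM. The groups overlapped in every complex, and the ratio of the means, mutant label over control label, was 0.928 for complex I, 1.03 for complex II, 0.928 for complex III, 0.947 for complex IV and 0.998 for complex V. Without replicate 1 of both labels these ratios were 1.03, 0.984, 1.03, 1.02 and 0.998 for complexes I, II, III, IV and V. Those of complexes I to IV thus turned to the other side of 1. These 2 libraries were chosen after the values were seen. In complexes I and III they were the lowest and the highest, so those ratios had to rise without them. Without replicate 1 of the mutant label alone the ratios of complexes I and III were 0.973 and 0.977. Without replicate 1 of the control label alone they were 0.978 and 0.981. No other pair was left out. All members together took between 1.93% and 2.27% of the TPM in a library.

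**Figure D2:**
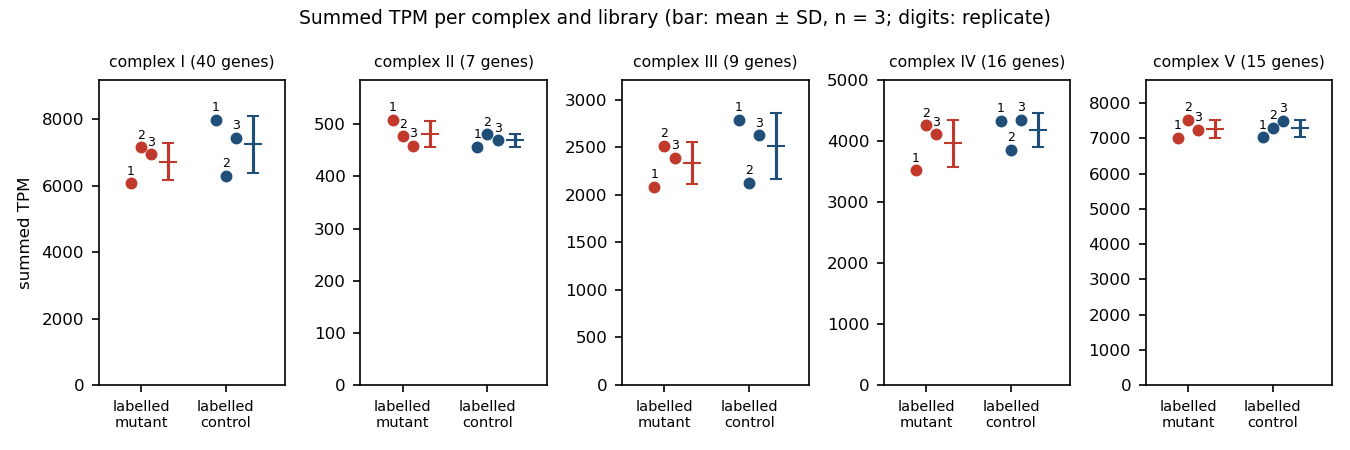
Summed TPM of the members of each complex in each library, with the mean and SD of the 3 libraries labelled mutant left of those of the 3 libraries labelled control. The points of the 2 labels overlap in every complex, for example 6077 to 7150 TPM against 6299 to 7980 TPM in complex I.

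In complex I, 13 of the 33 tested members had a log2 difference above 0 and 20 below 0, with a median of -0.07. The lowest was that of *ND-B12* (FBgn0034645; chromosome 2R of dm6, 21658078 to 21658777, plus strand), an accessory subunit of the membrane arm. Its level was 272.74, 320.83 and 326.72 TPM in the libraries labelled mutant, against 458.45, 317.99 and 376.29 TPM in those labelled control. The groups overlapped, since replicate 2 of the control label lay below 2 of the 3 libraries labelled mutant. The log2 difference was -0.31 (SE 0.17) with an adjusted p of 0.818 (limma). *ND-B14.5A*, another accessory subunit, had 68.41, 81.03 and 81.88 TPM against 112.14, 68.98 and 99.98 TPM. Its log2 difference was -0.25 (SE 0.20), and its lowest library was replicate 1 of the mutant label and its highest replicate 1 of the control label. The same libraries were lowest and highest in *ND-AGGG*, an accessory subunit with 590.19, 749.71 and 733.29 TPM under the mutant label and 894.25, 646.01 and 770.02 TPM under the control label.

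Among the core subunits of complex I, *ND-75* and *ND-51* had the reverse order of these libraries. *ND-75* had 86.68, 74.69 and 75.33 TPM in the libraries labelled mutant, against 63.71, 81.38 and 67.37 TPM in those labelled control, and its log2 difference of 0.16 (SE 0.15) was the highest of the 64 expressed members. *ND-51*, which binds NADH and the flavin, had 127.44, 106.18 and 105.45 TPM against 93.67, 114.95 and 102.92 TPM (log2 difference 0.12, SE 0.15). For both genes replicate 1 of the mutant label was the highest library and replicate 1 of the control label the lowest. *ND-20*, also a core subunit, had the order of *ND-AGGG*, with 153.22, 167.14 and 160.5 TPM under the mutant label against 180.21, 159.62 and 169.78 TPM under the control label (log2 difference -0.08). *ND-49*, a core subunit next to the ubiquinone site, had a log2 difference of 0.08, and *ND-24* one of 0.01.

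Complex II, the succinate dehydrogenase, had 3 members above 0 and 1 below. *SdhA*, the flavoprotein that oxidises succinate, had 109.97, 79.74 and 83.17 TPM in the libraries labelled mutant, against 73.17, 98.37 and 76.82 TPM in those labelled control. Replicate 1 of the mutant label was the highest and the other 2 libraries of that label lay within the range of the control label, and the log2 difference was 0.13 (SE 0.18, adjusted p 0.822 with limma). *SdhB*, the iron-sulphur subunit, had a log2 difference of 0.08. The membrane anchors *SdhC* and *SdhD* varied little between libraries. *SdhC* had 200.07, 211.31 and 198.26 TPM against 205.76, 195.84 and 206.47 TPM, a log2 difference of 0.0035 with a 95% confidence interval from -0.29 to 0.30. The assembly factor *Sdhaf3*, which in yeast and mammals helps to mature the iron-sulphur subunit, had 45.58, 44.88 and 46.48 TPM against 62.81, 37.2 and 55.62 TPM, so that all 3 libraries labelled mutant lay inside the range of the control label.

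Complex III had 3 members above 0 and 3 below. *UQCR-11*, a small accessory subunit and the most highly expressed member of the complex, had 705.59, 890.77 and 827.22 TPM in the libraries labelled mutant, against 1109.5, 726.38 and 979.94 TPM in those with the control label. Its log2 difference was -0.20 (SE 0.19, adjusted p 0.818 with limma), and the groups overlapped through replicate 2 of the control label. *UQCR-6.4*, another small subunit, had a log2 difference of -0.14. *UQCR-C1*, a large core subunit, had 217.75, 194.21 and 193.84 TPM against 187.62, 205.46 and 181.97 TPM, a log2 difference of 0.07.

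In complex IV, the cytochrome c oxidase, the catalytic subunits come from the mitochondrial genome and the members here surround them. *COX4* and *COX7A* were above 0 among the expressed members, with log2 differences of 0.02 and 0.00032, and 6 members were below 0. *COX5A* had 423.83, 510.65 and 527.37 TPM in the libraries labelled mutant, against 661.08, 415.46 and 552.19 TPM in those labelled control. Its log2 difference of -0.14 (SE 0.20) was the lowest of the complex, and the control label held both the highest and the lowest library. *COX7B* had 543.94, 734.61 and 698.09 TPM against 810.8, 592.77 and 749.53 TPM (log2 difference -0.12), and *COX7C* had a log2 difference of -0.11. *COX4* had 379.57, 436.8 and 409.46 TPM against 370.65, 430.96 and 406.71 TPM, so that both labels covered nearly the same range.

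In complex V, 6 members were above 0 and 6 below. *ATPsynG*, a subunit of the membrane part, had 683.97, 867.43 and 863.91 TPM in the libraries labelled mutant, against 912.32, 811.2 and 965.59 TPM in those labelled control. The groups overlapped, and its log2 difference of -0.16 (SE 0.16, adjusted p 0.818 with limma) was the lowest of the complex. *ATPsynCF6*, which lies in the stalk that joins the catalytic head to the membrane part, had 522.44, 582.49 and 521.22 TPM against 451.12, 535.37 and 518.88 TPM. Its log2 difference of 0.11 was the highest of the complex, with the groups overlapping in the range of 521 to 535 TPM. *ATPsynC* and *ATPsynbeta* had log2 differences of 0.09 and 0.02.

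The order of libraries ran with the length of the transcripts. The 64 expressed members have short transcripts, with a median length of 703 bp against 1891 bp over all tested genes with an annotated length. Of the 21 members of up to 600 bp, 18 had a log2 difference below 0 and 3 above, with a median of -0.12. Of the 31 members between 600 and 1000 bp, 19 were below 0 and 12 above, with a median of -0.03. All 12 members above 1000 bp, among them *ND-75*, *ND-51*, *SdhA*, *UQCR-C1*, *ATPsynC* and *ATPsynbeta*, were above 0, with a median of 0.08. All tested genes had the same order of medians in these length classes, -0.09, -0.03 and 0.15. Across the 64 members Spearman's rho between transcript length and log2 difference was 0.704, and across all tested genes 0.536. These correlations are across genes of the same 6 libraries, which are not independent replicates.

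**Figure D3:**
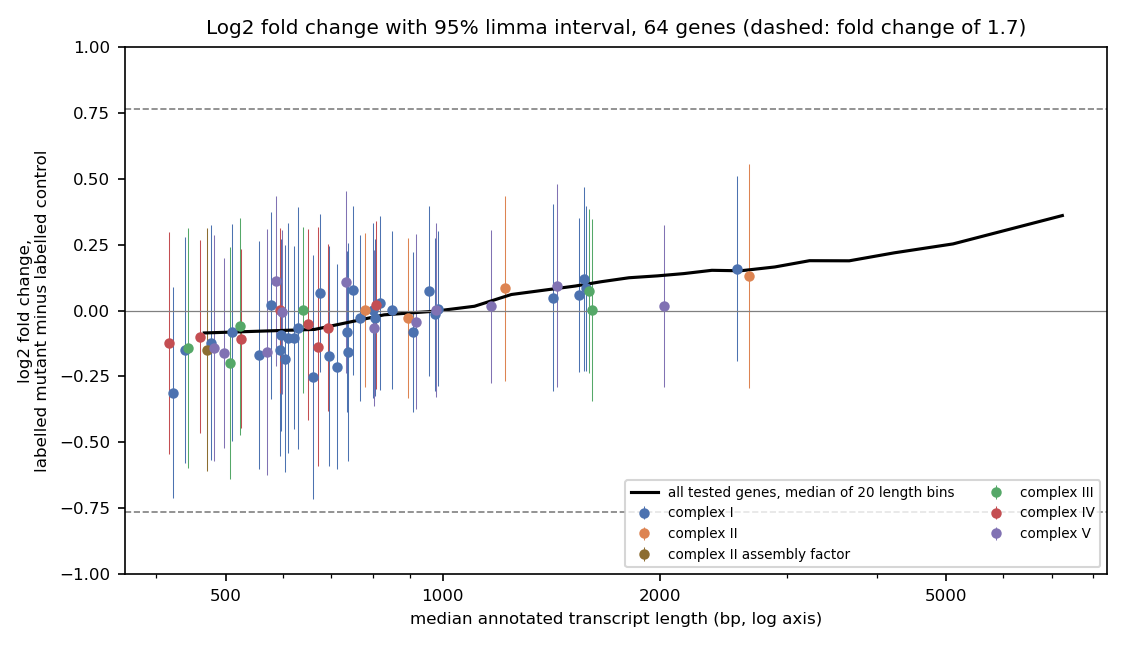
Log2 difference in TPM (mutant label minus control label) of each expressed member against the length of its transcripts in bp on a log axis, with the running median of all tested genes. Members of up to 600 bp have a median of -0.12 and all 12 members over 1000 bp lie above 0, alongside a rising running median of all genes.

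Single libraries differed in how their values ran with length. Spearman's rho between transcript length and the deviation of a library from the gene's mean was 0.698, -0.214 and -0.152 across the 64 members in the libraries labelled mutant, against -0.613, 0.610 and -0.764 in those labelled control. All 3 libraries labelled control and replicate 1 of the mutant label thus ran most strongly with length, in differing directions. Across all tested genes with an annotated length, rho was 0.639, -0.308 and -0.093 under the mutant label, against -0.614, 0.576 and -0.687 under the control label. For members of up to 600 bp, the median deviation on the log2 scale was -0.27, 0.05 and 0.01 in the libraries labelled mutant, against 0.26, -0.19 and 0.14 in those labelled control. For members over 1000 bp the deviations were 0.17, 0.01 and -0.02 against -0.16, 0.08 and -0.04. Replicate 1 of the mutant label and replicate 1 of the control label thus deviated in opposite directions, and in each the sign turned between short and long members. Of the 52 members of up to 1000 bp, replicate 1 of the mutant label was the lowest library for 27 and replicate 1 of the control label the highest for 25. Of the 12 longer members, replicate 1 of the mutant label was the highest library for 7 and replicate 1 of the control label the lowest for 9.

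**Figure D4:**
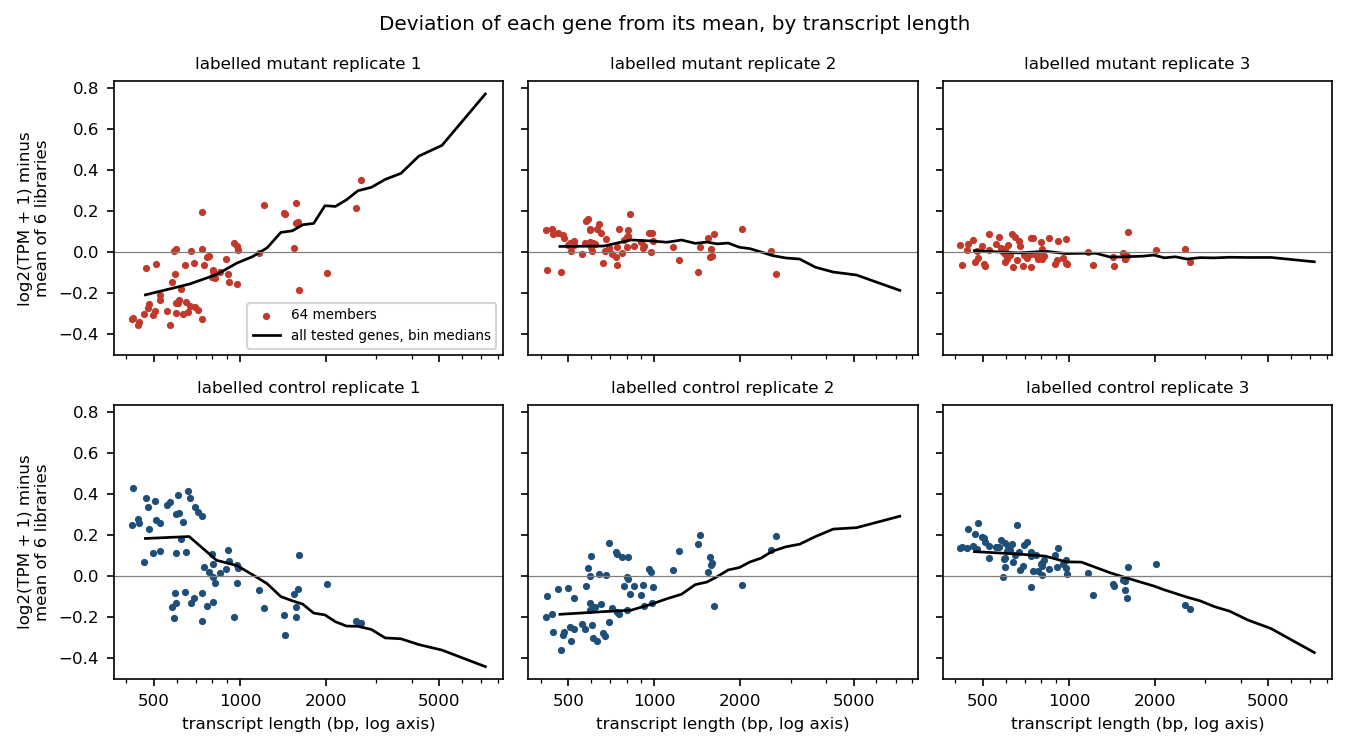
Deviation of each library from the gene's mean over the 6 libraries, on the log2 scale, against transcript length in bp on a log axis, for the expressed members and for the running median of all tested genes. Replicate 1 of the mutant label has a median of -0.27 for members of up to 600 bp and 0.17 for members over 1000 bp, and replicate 1 of the control label has 0.26 and -0.16.

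Without replicate 1 of both labels the signs turned round. These libraries were chosen after they were seen to deviate in opposite directions, so a shift that way was built in. No other pair was left out. Without them, members of up to 600 bp had a median log2 difference of 0.04, with 18 above 0 and 3 below. Members over 1000 bp had a median of -0.02, with 5 above and 7 below. All tested genes turned the same way in these length classes, with medians of 0.04 (279 above, 169 below) and -0.01 (3118 above, 3421 below). Without replicate 1 of the mutant label alone the medians of the members were -0.02 and 0.03, and without replicate 1 of the control label alone -0.05 and 0.03. Leaving out other libraries moved the medians too, without replicate 2 of the control label to -0.26 and 0.13, without replicate 3 of the control label to -0.06 and 0.06, without replicate 2 of the mutant label to -0.19 and 0.10 and without replicate 3 of the mutant label to -0.16 and 0.11. Where the trend with length was taken out of each library over all tested genes, the median of the 64 members was -0.02 and the median of all genes 0.01, with 43 members below 0. What lies behind this pattern was not tested.

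No member was called in any setting tried. *ND-B12* reached an unadjusted p of 0.040 (limma) after removal of the length trend, with a log2 difference of -0.23 and an adjusted p of 0.696. Without replicate 2 of the control label, 3 of the 65 tested members reached an unadjusted p under 0.05, namely *ND-B12*, *ND-B14.5A* and *Sdhaf3*, with an adjusted p of 0.376 for each (limma). Among all tested genes the share under that unadjusted p was 4.82% with all 6 libraries. It was not taken in these settings.

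The spread between libraries was small for many members. The ratio of the highest to the lowest of the 6 libraries had a median of 1.29 over the 64 expressed members and ran from 1.07 to 1.69. It was under 1.2 for 20 members and 1.5 or more for 18. The widest was that of *Sdhaf3*.

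The members lie on all major chromosome arms. The 12 expressed members on X had a median log2 difference of -0.03, the 2 on chromosome 4 (*ATPsynbeta* and *ND-49*) one of 0.05, and the 50 on 2L, 2R, 3L and 3R one of -0.06. The roX RNAs, which coat the male X for dosage compensation, summed to between 214 and 355 TPM in the libraries labelled mutant, against 290 to 473 TPM in those labelled control. *roX2* had 70.22, 127.4 and 121.13 TPM against 190, 122.48 and 216.73 TPM, with overlapping groups. Its log2 difference was -0.73 (unadjusted p 0.034, adjusted p 0.818, limma), and that of *roX1* was -0.17. The part of the roX RNAs in the values on X was not tested.

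Some members share exonic bases with another expressed gene. Of the 64, 25 overlap an exon of a gene with a mean of at least 1 TPM, 4 of them over more than 25% of their exonic bases. *ND-MNLL*, an accessory subunit of complex I, lies wholly within exons of *CG45089* on the same strand, and *UQCR-14* within exons of *CG32576* on the opposite strand. *UQCR-6.4* shares 40.5% of its exonic bases with *POSH* and *ND-B22* shares 26.1% with *CG31855*, both on the opposite strand. Reads of such pairs can be divided between the genes, and whether strand was used is not given in the sources used here, so the values of these 4 members are less certain.

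The duplicate genes, whose symbol is that of a subunit followed by L, were listed at low values or at 0 in the disc. There are 24, of which 22 stayed under 1 TPM in every library and were not tested, and 12 of these were listed at 0 in all 6 libraries, among them *ND-24L*, *ND-49L*, *SdhAL*, *SdhCL*, *UQCR-14L*, *ATPsynGL* and *ATPsynCF6L*. The highest value of an untested duplicate was 0.63 TPM, in *COX7CL*, whose parent gene *COX7C* averaged 542 TPM. *COX7CL* had 0.32, 0.51 and 0.36 TPM in the libraries labelled mutant, against 0.63, 0.42 and 0.36 TPM in those labelled control. *COX7AL2* was the member nearest above the filter, with 0.31, 1.23 and 0.29 TPM against 0.28, 0.28 and 0.51 TPM, so that a single library brought it into the test.

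**Figure D5:**
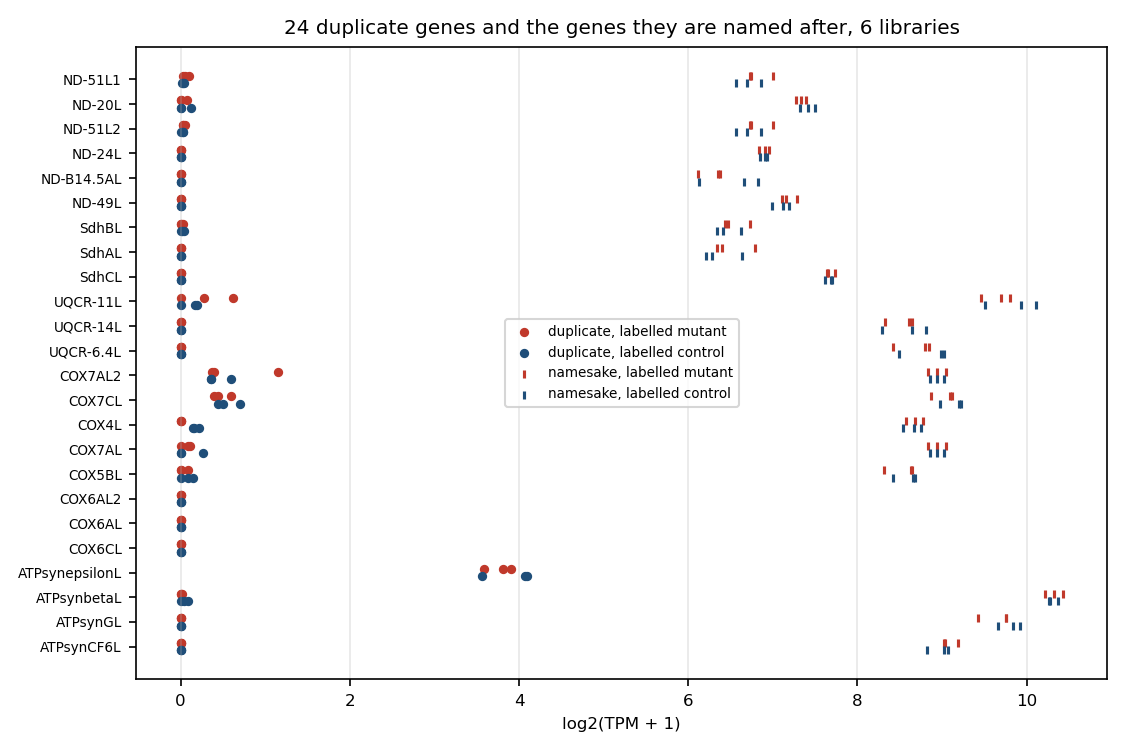
Log2(TPM + 1) of the duplicate genes and of their parent subunits in each library, with libraries labelled mutant and libraries labelled control as separate markers. For 4 duplicates, ATPsynepsilonL among them, no parent is drawn, since no member has the parent symbol. ATPsynepsilonL lies between 10.9 and 16.2 TPM, COX7AL2 reaches 1.23 TPM in a single library, and all other duplicates stay at or below 0.63 TPM.

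*ATPsynepsilonL* was the exception among the duplicates. It had 11.01, 14.02 and 13.06 TPM in the libraries labelled mutant, against 15.76, 10.86 and 16.15 TPM in those labelled control. The groups overlapped, and the log2 difference was -0.14. The gene *sun*, which encodes the epsilon subunit of the ATP synthase, had 613.58, 794.45 and 799.4 TPM against 988.01, 698.15 and 844.58 TPM (log2 difference -0.19). *COX4L* was listed at 0 in the 3 libraries labelled mutant, against 0.11, 0.12 and 0.16 TPM in those labelled control. These values are under the filter, and with no filter its log2 difference was -0.18 with an unadjusted p of 0.0034 and an adjusted p of 0.330 (limma). Of 8 testis markers, 1 reached 1 TPM in any library. The remaining untested member was *ND-B8*, an accessory subunit of complex I. It was listed at 0 in all libraries but replicate 2 of the mutant label, where it had 0.1 TPM. This subunit is known to belong to the complex in other species, and whether a 0 here is a failed estimate was not tested.

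Genes that work with the members under other symbols were also counted, from lists chosen by function. Of 9 further subunits and electron carriers, 8 were tested and none was called or reached an unadjusted p under 0.05 (limma), with 3 above 0, 5 below and a median of -0.02. They include *blw*, the alpha subunit of the ATP synthase, with 620.47, 400.7 and 454.73 TPM in the libraries labelled mutant, against 379.02, 547.1 and 425.18 TPM in those labelled control. Replicate 1 of the mutant label was again the highest and replicate 1 of the control label the lowest for this gene of long transcripts (2252 bp). Cytochrome c, encoded by *Cyt-c-p*, averaged 325 ± 36.3 TPM against 332 ± 32.7 TPM (SD, n = 3 each).

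None of the 12 genes of mitochondrial DNA upkeep and transcription was called, and none reached an unadjusted p under 0.05 (limma). Their median log2 difference was 0.16, with 10 above 0 and 2 below, beside 0.13 over all tested genes. *TFAM*, which packages mitochondrial DNA, had 132.85, 132.23 and 126.85 TPM in the libraries labelled mutant, against 116.27, 119.13 and 122.54 TPM in those labelled control. It was the only gene of this list whose groups did not overlap, where 7.90% of tested genes lay above, and its log2 difference of 0.13 (SE 0.13, adjusted p 0.818 with limma) equalled the median of all genes. The median was 0.12 over 3 regulators of nuclear mitochondrial genes, 0.07 over 8 further assembly factors, 0.09 over 10 enzymes of the TCA cycle and 0.02 over *sesB*, *porin*, *Mpcp2* and *Sod2*. No gene of these 4 lists was called or reached an unadjusted p under 0.05 (limma). *sesB*, the carrier that exchanges ADP and ATP across the inner membrane, averaged 1353 ± 91.6 TPM against 1352 ± 99.4 TPM (SD, n = 3 each).

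Markers of other tissues that a disc preparation could hold were measured beside these values. The 8 genes of differentiated muscle, a tissue rich in mitochondria, summed to between 48.8 and 54.6 TPM in the libraries labelled mutant, against 34.2 to 66.1 TPM in those labelled control, with *Act88F* listed at 0 in all 6. The 8 fat body genes summed to 8.42 to 13.3 TPM against 11.8 to 19.2 TPM, with 3 of the 6 tested lying wholly below the control label, as 2.56% of all tested genes did, and 2 reaching an unadjusted p under 0.05 (limma). The 5 tracheal genes summed to 452 to 592 TPM against 341 to 408 TPM, with 3 of 5 wholly above, as 7.90% of all tested genes were, and 2 reaching an unadjusted p under 0.05 (limma). The 6 haemocyte genes summed to 32.02 to 36.5 TPM against 23.6 to 35.2 TPM, and the 4 markers of adult muscle precursors to 61.4 to 71.3 TPM against 48.8 to 71.9 TPM. No gene of the muscle, muscle precursor or haemocyte lists reached an unadjusted p under 0.05 (limma). None of these markers was called, and the part of these tissues in the values of the members was not tested.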

How the data were processed

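RNA-seq libraries of wing discs, 3 labelled mutant and 3 labelled control, were used as the authors deposited them. The deposited values are TPM per gene, which the authors obtained with STAR 2.4.0j on dm6 and RSEM 1.2.21, the versions being those of the submitters' processing notes. The methods describe poly-A selected RNA. TPM sum to 1000000 over the genes listed, hold no depth and allow no interval for counting error. Gene symbols, positions and the median length of a gene's transcripts were taken from the Ensembl 115 annotation of dm6, which matched 16402 identifiers and left 53 without a symbol.

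The 8051 genes that reached 1 TPM in any library were fitted on log2(TPM + 1) with limma 3.58.1 (lmFit and eBayes) in R 4.3.3, with the label as the only term. Fold changes on that scale understate those of low genes. Calls required a fold change over 1.7 and an adjusted p (Benjamini-Hochberg over all tested genes) under 0.05. A count test could not be used since the values are TPM. The fit was tested on simulated data. The supplement calls the libraries biological replicates, and p-values measure the spread between these samples.

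The members and lists were chosen with earlier results of these data known. Members named with values were the 2 with the highest mean TPM and those with the largest difference in each direction in each complex, any called or with an unadjusted p under 0.05, the duplicates with their parents, and those nearest the filter; ND-MNLL, ND-B22 and ND-B8 are named for the reasons given beside them. Genes outside the members were chosen after their values were seen. Alternatives were a pseudocount of 0.1, no filter, a filter of at least 5 TPM in 3 libraries, median ratio scaling (each library divided by its median ratio to the genes' geometric means), calls by adjusted p alone, a replicate block, a mean-variance trend and leaving out each library in turn. Removal of the length trend (loess, span 0.5) was chosen after seeing the data. So were the length classes and sums per complex without single libraries or without replicate 1 of both labels. Promoters and protein sequences were not analysed here, and no gene of the mitochondrial genome was found among the listed genes. Tables and figures were made with pandas 2.3.3 and matplotlib 3.10.9.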

Additional observations from a re-analysis of the deposited data

How the results depend on the processing

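The number of members called was 0 under every alternative run. The adjusted p of the 30 named members that passed the main filter was never under 0.376 (limma). That of *COX4L*, which was tested only with no filter, was 0.330 (limma). The median log2 difference of the 64 expressed members was -0.04, and it moved beyond the spread between replicates only under median ratio scaling, to -0.17. With one library left out it lay between -0.08 and -0.00047. Of 388 alternative log2 differences of named members, 37 had the opposite sign, 11 of them under median ratio scaling and 5 without the length trend, and 11 moved by more than the spread between replicates. With the replicate number as a block the median stayed at -0.04 and 0 members were called. Same-numbered libraries had deviations that correlated at -0.03, -0.35 and 0.16 for replicates 1, 2 and 3. With 3 libraries a label, such correlations cannot decide whether the numbers pair the libraries. The block raised the count of all called genes to 31, against 18 without it. That count was 38 without the length trend, 35 without mutant replicate 1, 11 without mutant replicate 3, 9 without control replicate 3, 6 without control replicate 1, 11 with no filter and 9 with the stricter filter. The causes of these shifts were not tested. Medians of mitochondrial genes and the rescaling without them were not run, since no such gene was found among those listed. With 3 libraries a label and no depth, small differences of single members could not be detected. The intervals given above are not adjusted for the number of genes tested, so a call needed more than an interval that leaves out 0.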
